A study of Mus musculus with 6 samples.

Results

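The N-glycan branching enzymes are glycosyltransferases of the Golgi that decide how many antennae a glycan on a secreted or membrane protein carries. The 9 examined here in mouse pheochromocytoma (PHEO) cells were Mgat1, Mgat2, Mgat3, Mgat4a, Mgat4b, Mgat4c, Mgat5, Mgat5b and Fut8, out of 19937 genes with a probe set of their own. The family was selected on its function and on the measured difference of Mgat4c between 2 cell lines, so the values of Mgat4c are a description and carry no test. For genes with several probe sets the one with the highest mean over the 6 arrays was to be used, but each of the 9 genes had exactly 1 probe set with 1 gene symbol, so brightness chose none of them.

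RNA of 3 MTT and 3 MPC samples was read on 6 Affymetrix Mouse Gene 1.0 ST arrays, and the labels give no treatment for any of them. MPC is a well differentiated PHEO line that comes from Nf1 knock-out mice, and MTT is a fast-growing line that was derived from liver metastases formed by MPC cells, so both carry the Nf1 background. Each is a single cell line. The methods call the 3 MTT samples separate, without saying whether they were separate cultures, and do not describe the MPC samples. A p-value here therefore speaks only of the spread among the arrays, which may be technical. The labels call all 6 samples metastatic and give them the same liver source and the growth text of MTT cells, and MPC is told from MTT by title and cell type.

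The 6 arrays were alike in scale, with medians of 7.73 to 7.77 (log2) over 34760 probe sets. Of 9 measured markers of chromaffin cells, Th, tyrosine hydroxylase, had a log2 signal of 13.48 on average, while Pnmt, which makes adrenaline, read 7.02, inside the range of receptor genes given below as a guide to background. Slc18a1, a vesicular monoamine transporter, rose by 0.27 in MTT cells and Chgb, a granule protein, fell by 0.15 (limma adjusted p = 0.0042 and 0.0233). No other of the 9 passed, so 22.2% of the list was called, beside 7.87% of all genes. The summed linear signal of the 9 was 41323 to 42340 in MTT and 42365 to 43067 in MPC cells. None of 26 markers of hepatocytes, adrenal cortex, fibroblasts, endothelium and leukocytes passed the test between the lines, beside 7.87% of all genes. Their log2 differences were -0.15 to 0.20. The hepatocyte sum was 989 to 1057 in MTT and 1036 to 1078 in MPC cells. The 7 hepatocyte markers read 6.08 to 8.35 on average. Alb, at 6.30, lies within the range of the receptor genes, and Apoa2, at 8.35, above their 99th percentile of 7.86. The other hepatocyte markers read below that percentile.

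In this pathway a preformed glycan is moved onto asparagine in the endoplasmic reticulum, trimmed by glucosidases and mannosidases, and rebuilt in the Golgi. Mgat1 adds the first N-acetylglucosamine (GlcNAc) of the new antennae, Mgat2 opens the other arm, Mgat4a and Mgat4b add a further branch to one arm and Mgat5 to the other, while Mgat3 adds a bisecting GlcNAc that hinders later branching and Fut8 adds fucose to the core. Mgat5b is a relative of Mgat5 found mainly in brain, where it also acts on O-mannosyl glycans, and Mgat4c is a relative of Mgat4a and Mgat4b whose own activity is less well established. Branched antennae are extended with galactose, capped with sialic acid, and bound by galectins at the cell surface.

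Mgat4c was higher in MTT cells, where its log2 signal was 8.02, 7.997 and 7.85 on the 3 arrays, against 6.46, 6.57 and 6.34 on the MPC arrays. The lowest MTT array stood well above the highest MPC array. The means were 7.96 ± 0.094 (SD, n = 3) and 6.46 ± 0.12 (SD, n = 3), a log2 difference of 1.50 or a 2.83-fold higher signal, and the difference was 1.44 to 1.56 when each array was left out in turn. The deposited values hold no detection calls. As a guide to signal without transcript, chosen after the values were seen, 1194 receptor genes of the olfactory and vomeronasal families, which act in the nose, had mean log2 signals with a median of 5.05, a 95th percentile of 7.05 and a 99th percentile of 7.86. The MPC signal of Mgat4c lies inside that range. The MTT mean lies just above its 99th percentile, and the lowest MTT array, at 7.85, just below it. Since probe sets differ in their background, the MPC signal is not shown to lie above it, and the difference is one of signals and not a measure of how much the transcript changed.

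**Figure D1:**
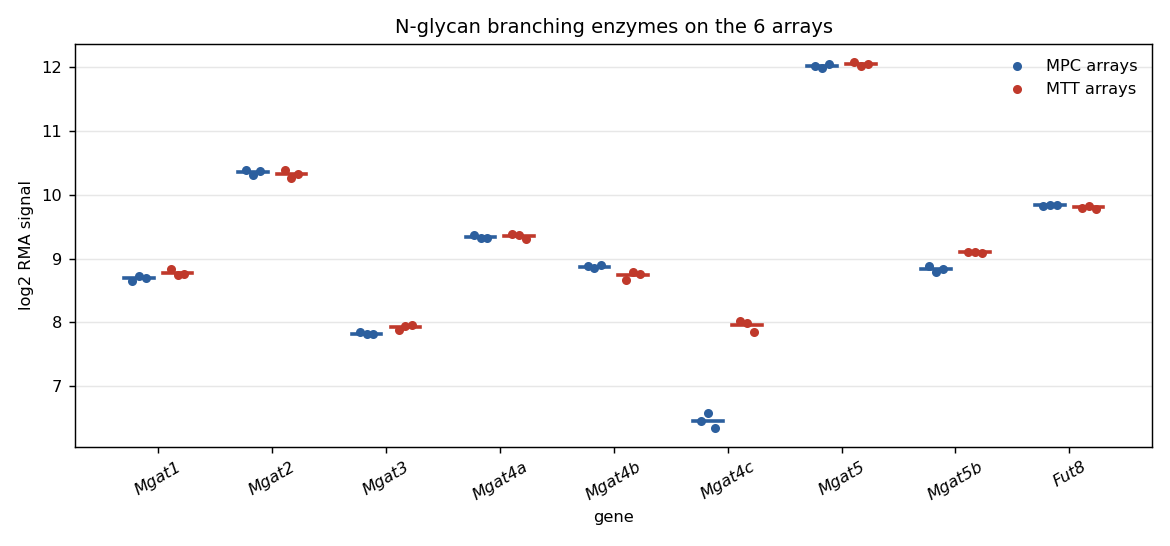
log2 RMA signal (vertical axis) of the 9 branching enzymes (horizontal axis) on the 3 MPC arrays (blue) and the 3 MTT arrays (red). Points are arrays and bars are means of 3; the lines separate widely for Mgat4c, at 6.46 in MPC and 7.96 in MTT cells, and narrowly for Mgat5b, at 8.84 and 9.10, while signals should not be set against each other across genes.

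The start sites of Mgat4c are shown because the probe set does not tell which of them is in use. RefSeq gives Mgat4c 4 promoter windows of 300 bases in GRCm38.p6 (250 before and 50 after a start site) on the plus strand of chromosome 10; windows 2 and 3 overlap, and windows 1, 2 and 4 are printed with the single window of Mgat5b, the other enzyme that differed, and a CpG-rich window of Mgat4a for comparison. Capitals mark CpG dinucleotides.

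Mgat4c window 1, chr10:101681237-101681536, plus strand: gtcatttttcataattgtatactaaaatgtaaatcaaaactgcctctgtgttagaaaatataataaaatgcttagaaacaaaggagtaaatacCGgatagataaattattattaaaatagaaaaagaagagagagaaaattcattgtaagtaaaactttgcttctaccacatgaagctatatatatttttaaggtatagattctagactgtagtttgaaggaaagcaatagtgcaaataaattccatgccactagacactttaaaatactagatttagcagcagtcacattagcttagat
Mgat4c window 2, chr10:102158608-102158907, plus strand: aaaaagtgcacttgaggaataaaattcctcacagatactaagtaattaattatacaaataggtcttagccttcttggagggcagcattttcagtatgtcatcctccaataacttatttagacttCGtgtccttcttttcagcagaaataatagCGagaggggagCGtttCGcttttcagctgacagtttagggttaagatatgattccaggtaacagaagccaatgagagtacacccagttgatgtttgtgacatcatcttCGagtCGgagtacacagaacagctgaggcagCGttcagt
Mgat4c window 4, chr10:102374187-102374486, plus strand: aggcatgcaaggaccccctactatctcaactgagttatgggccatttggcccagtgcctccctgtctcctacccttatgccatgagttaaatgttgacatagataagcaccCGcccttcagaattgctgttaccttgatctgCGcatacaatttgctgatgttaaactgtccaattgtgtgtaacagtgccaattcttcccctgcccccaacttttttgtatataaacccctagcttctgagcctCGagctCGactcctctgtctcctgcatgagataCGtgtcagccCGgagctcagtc
Mgat5b, chr11:116918613-116918912, plus strand: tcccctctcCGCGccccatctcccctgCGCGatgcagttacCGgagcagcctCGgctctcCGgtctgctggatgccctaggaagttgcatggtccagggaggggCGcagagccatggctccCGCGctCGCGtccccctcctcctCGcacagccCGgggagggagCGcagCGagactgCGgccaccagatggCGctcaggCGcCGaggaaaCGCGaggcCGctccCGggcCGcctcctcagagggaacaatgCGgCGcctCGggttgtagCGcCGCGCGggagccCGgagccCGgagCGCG
Mgat4a window 2, chr1:37540967-37541266, minus strand: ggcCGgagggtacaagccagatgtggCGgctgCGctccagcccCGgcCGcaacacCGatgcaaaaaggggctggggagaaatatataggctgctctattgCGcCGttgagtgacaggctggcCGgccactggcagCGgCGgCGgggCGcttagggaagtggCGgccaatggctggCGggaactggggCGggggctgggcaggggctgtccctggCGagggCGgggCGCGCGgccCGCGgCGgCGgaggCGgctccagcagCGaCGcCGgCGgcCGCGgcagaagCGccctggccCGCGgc

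The 4 Mgat4c windows held 1, 7, 10 and 6 CpG, against a median of 7 over the 32851 windows of the table, while that of Mgat5b held 36 and the printed one of Mgat4a 35, more than 93.8% and 93.0% of all windows. The other window of Mgat4a held 2, more than 14.1% of all windows. The enzymes that differed between the lines thus had start regions of unlike base composition. Letters of 4 motifs were searched on both strands in the 16 windows of the 7 members listed there (Mgat1, Mgat2, Mgat4a, Mgat4c, Mgat5, Mgat5b and Fut8). The TATA box TATAAA was found in Mgat4c window 4 alone (13.6% of all windows hold it) and the GC box GGGCGG in 8 windows (35.7% of all), which include Mgat4c window 4 but not that of Mgat5b. The cyclic AMP element core TGACG (20.8%) and the E-box CACGTG (7.2%) were found in none of the 16. These are matches of letters and were not tied to any factor.

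Mgat5b was the other branching enzyme that was higher in MTT cells. Its log2 signal was 9.10 on each of the 3 MTT arrays, and 8.88, 8.79 and 8.84 on the MPC arrays. The lines did not overlap, and the spread within MTT cells was the smaller: the means were 9.10 ± 0.0046 (SD, n = 3) and 8.84 ± 0.045 (SD, n = 3). The log2 difference of 0.26 (standard error 0.035, 95% interval 0.18 to 0.34) passed limma's test over all genes (adjusted p = 0.00357), and it passed in each of the 6 fits without 1 array (0.24 to 0.28, adjusted p 0.0082 to 0.0215). Mgat5b and Mgat5 were also compared within each array, where the log2 ratio of their signals was -2.95 ± 0.036 in MTT against -3.18 ± 0.038 in MPC cells (SD, n = 3 each). That ratio was higher by 0.23 on the log2 scale in MTT cells, on every MTT array against every MPC array. The exact two-sided permutation p was 0.1, the smallest that 3 against 3 arrays can give. Since Mgat5 differed by only 0.030, the ratio largely restates the Mgat5b difference and is not a separate result. The ratio of Mgat4b to Mgat4a was separated too, with a difference of -0.14 and the same permutation p of 0.1.

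Of the 8 enzymes other than Mgat4c, Mgat5b was thus the 1 that passed the test, where 7.87% of all genes did (3.93% higher and 3.94% lower in MTT cells). The arrays of the lines did not overlap for 5 of the 8, beside 27.2% of all genes, and the median absolute log2 difference of the 8 was 0.062, beside 0.050 over all genes. None of the 9 enzymes lies on chromosome 13, where 33.9% of genes were higher in MTT cells, or on chromosome 19, where 16.4% were lower.

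The entry enzymes of branching differed little. Mgat1 had log2 signals of 8.84, 8.75 and 8.75 in MTT and 8.65, 8.73 and 8.69 in MPC cells, a difference of 0.089 (95% interval -0.0019 to 0.18, limma adjusted p = 0.253). The MTT arrays were all above the MPC arrays, by a narrow gap. Mgat2 read 10.26 to 10.39 in MTT and 10.31 to 10.39 in MPC cells, ranges that overlap (difference -0.031, 95% interval -0.13 to 0.068).

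Within the Mgat4 group the lines differed for Mgat4c while Mgat4a and Mgat4b, which make the same branch, did not pass. Mgat4a read 9.38, 9.36 and 9.31 in MTT and 9.37, 9.33 and 9.33 in MPC cells, and the arrays overlapped (difference 0.0086, 95% interval -0.073 to 0.090). Mgat4b read 8.66, 8.80 and 8.76 in MTT and 8.88, 8.85 and 8.89 in MPC cells. All 3 MTT arrays were below the MPC arrays, yet the log2 difference of -0.14 (95% interval -0.23 to -0.038) did not pass over all genes (limma adjusted p = 0.107). Mgat4b passed when limma's test was limited to genes above the median signal (adjusted p = 0.0293). In that setting 2207 of 9968 genes were called, a larger share than the 7.87% of all genes in the main fit. Within arrays, the log2 ratio of Mgat4c to Mgat4a was -1.39 ± 0.056 in MTT against -2.88 ± 0.12 in MPC cells (SD, n = 3 each). That of Mgat4c to Mgat4b was -0.78 ± 0.14 against -2.42 ± 0.14 (SD, n = 3 each). These ratios largely restate the Mgat4c difference on which the family was chosen, so they are a description and not a separate result. The relatives Mgat4d (an inhibitor of Mgat1 in mouse testis), Mgat4e and Mgat4f had log2 differences of -0.015, -0.047 and -0.092. None passed (limma adjusted p 0.300 to 0.872), and Mgat4f was named after its values were seen. Their mean signals of 5.05 to 6.35 in the 2 lines lie below the receptor genes' 95th percentile of 7.05. They are thus not shown to lie above background, and their small differences do not show unchanged transcripts.

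Mgat5, which starts the antenna that carries long galactose-GlcNAc repeats, read 12.08, 12.01 and 12.05 in MTT and 12.01, 11.99 and 12.05 in MPC cells. These ranges overlap, and the difference was 0.030 (95% interval -0.050 to 0.11). Mgat3, the bisecting enzyme, read 7.88, 7.95 and 7.96 in MTT and 7.85, 7.81 and 7.82 in MPC cells. The MTT arrays were all the higher ones, and the difference of 0.10 (95% interval 0.020 to 0.19) did not pass over all genes (limma adjusted p = 0.148). The MPC mean of Mgat3, 7.83, lies just below the receptor genes' 99th percentile of 7.86 and its MTT mean of 7.93 just above it. Fut8, of core fucosylation, read 9.80, 9.83 and 9.78 in MTT and 9.83, 9.85 and 9.84 in MPC cells, with a gap between the lines of 0.0012 and a difference of -0.035 (95% interval -0.11 to 0.037).

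**Figure D2:**
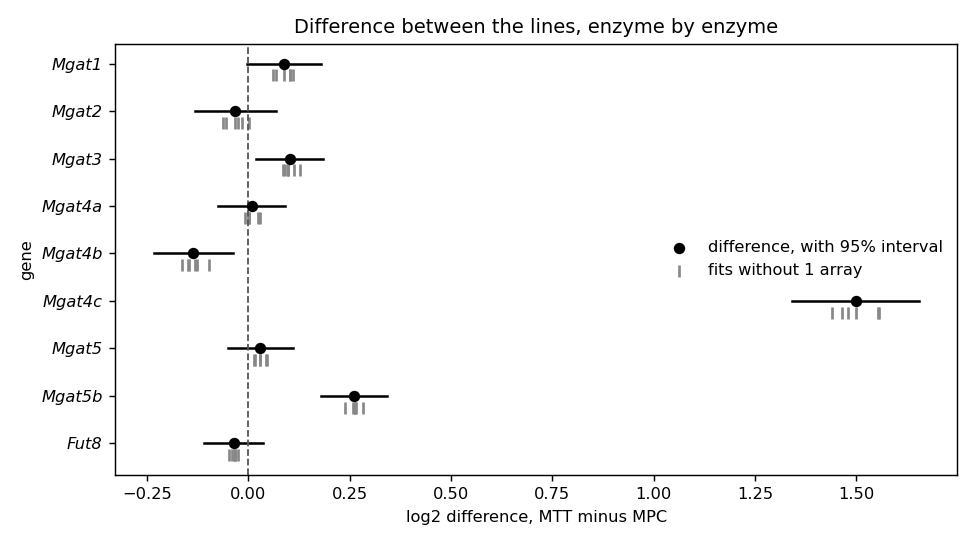
log2 difference between the lines (MTT minus MPC, horizontal axis) of the 9 enzymes (vertical axis). Points are differences with 95% intervals and grey ticks the 6 fits that each leave out 1 array; Mgat4c stands at 1.50 and Mgat5b at 0.26, and the other 7 lie between -0.14 and 0.10.

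Genes on either side of Mgat4c on chromosome 10 were examined next, 5 measured ones each way in the order of the RefSeq gene table. The nearest, 1700017N19Rik and Nts, which encodes the peptide neurotensin, had log2 differences of -0.031 and 0.054, and neither passed. Among all 10, those of Kitl, the ligand of the Kit receptor, and Slc6a15, a transporter of neutral amino acids, passed: Kitl read 9.09 ± 0.061 in MTT against 8.87 ± 0.031 in MPC cells (SD, n = 3 each, limma adjusted p = 0.0151), and Slc6a15 read 10.75 ± 0.072 against 10.48 ± 0.077 (SD, n = 3 each, limma adjusted p = 0.0181). Both are the outermost of the 10. No other of the 10 passed, beside 7.87% of all genes called. The adjacent 1700017N19Rik read 4.94 in MTT and 4.97 in MPC cells, and Nts 4.58 and 4.53, below the receptor genes' median of 5.05. Rassf9, Alx1 and Lrriq1 also read inside the range of the receptor genes. For these genes, not shown to lie above background, a small difference does not show that the transcript was unchanged. The call of Kitl ended without MTT replicate 2 (adjusted p = 0.0534), and that of Slc6a15 ended without MTT replicate 1 or 2 or MPC replicate 1 (adjusted p up to 0.0732). Over the 939 genes of chromosome 10 the median difference was -0.0053, with 3.83% higher and 3.51% lower.

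**Figure D3:**
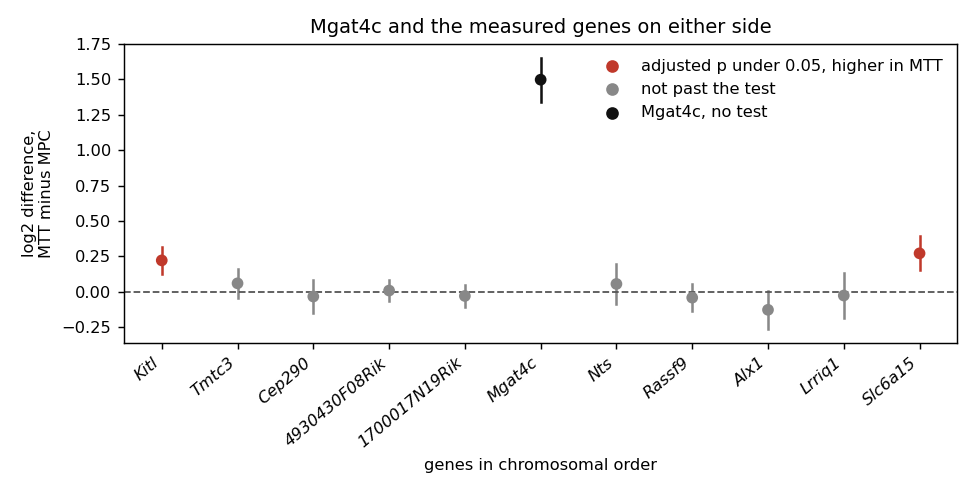
log2 difference between the lines (MTT minus MPC, vertical axis) of Mgat4c and the 5 measured genes on each side, in chromosomal order (horizontal axis, not to scale). Points are differences, bars 95% intervals, red marks genes past the test and black Mgat4c, which has no test. Mgat4c stands at 1.50, the adjacent genes near 0, and Kitl and Slc6a15 at 0.22 and 0.27. The adjacent genes read inside the range of the receptor genes.

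By the root mean square distance between mean-centred log2 profiles over the 6 arrays, the genes most like Mgat4c were Zfp57 (distance 0.096), Nnat (0.121), Prkg1 (0.122), Vcan (0.140) and Cd24a (0.141). Their log2 differences ran from 1.27 for Vcan to 1.72 for Nnat. Differences near that of Mgat4c follow from the way these genes were picked. The 6 points of each profile share 2 lines of 3 arrays each.

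The rest of the N-glycan pathway differed in single genes at most steps. Of 130 listed genes 125 were measured, and 9 were higher and 6 lower in MTT cells, 12% together, beside 7.87% of all genes. The median difference of the 125 was -0.0055, beside -0.0081 over all genes. Of the 9 higher genes, Lman2, Gmds, Gcnt2 and Lgals8 lie on chromosome 13. Without chromosomes 13 and 19 (a setting added once the values were known) 4 of 116 listed genes were higher and 6 lower, 8.62% together, beside 5.78% of all 18524 genes left (469 higher and 601 lower).

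At the early steps 4.55%, 8.33% and 9.09% of the genes of the lists below were called, beside 7.87% of all genes. Of 22 genes that build the lipid-linked precursor, Alg6, which adds its first glucose, was the 1 called, and fell by 0.17 on the log2 scale (limma adjusted p = 0.0364). Leaving out 1 array at a time ended that call in 5 of 6 cases (all but MTT replicate 2), with an adjusted p up to 0.126. Of 12 subunits of the oligosaccharyltransferase, Magt1 was lower in MTT cells, with 10.59 ± 0.024 against 10.85 ± 0.038 in MPC cells (SD, n = 3 each, limma adjusted p = 0.0040). Among 11 lectins and enzymes of quality control in the endoplasmic reticulum, Lman2, a cargo lectin, rose by 0.27 on the log2 scale.

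Among the mannosidases that prepare the substrate of Mgat1, Man1a and Man1c1 went in opposite directions. Man1a read 8.73, 8.71 and 8.74 in MTT and 8.37, 8.39 and 8.30 in MPC cells, and rose by 0.37 on the log2 scale (limma adjusted p = 0.000551). Man1c1, an enzyme of the same family, read 8.83, 8.75 and 8.82 in MTT and 9.25, 9.16 and 9.18 in MPC cells, and fell by 0.40 (limma adjusted p = 0.000721). Neither gene's arrays overlapped between the lines. The other 8 trimming enzymes did not pass, so 20% of the list was called, beside 7.87% of all genes. Man1a2, of the same family, was among these 8 (difference -0.013, limma adjusted p = 0.893).

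Of 25 genes that extend and cap the antennae, 3 were higher and 3 lower, 24% together, beside 7.87% of all genes. St8sia4, a polysialyltransferase whose best known substrate is the adhesion molecule Ncam1, read 8.80, 8.73 and 8.72 in MTT and 8.38, 8.41 and 8.33 in MPC cells, a rise of 0.38 (limma adjusted p = 0.000975). St8sia3, of the same family, fell by 0.28, with signals of 6.63 ± 0.052 against 6.90 ± 0.013 (SD, n = 3 each) that lie inside the range of the receptor genes. The sialyltransferases St3gal6 and St3gal4 rose by 0.32 and 0.22, and St6gal1, which attaches sialic acid through another linkage, fell by 0.18. St3gal6, at 7.41 in MTT and 7.09 in MPC cells, also lies below the 99th percentile of the receptor genes. B4galt5, a galactosyltransferase best known for making lactosylceramide, fell by 0.23. Leaving out 1 array at a time ended the call of St3gal4 in 5 of 6 cases (all but MPC replicate 2, adjusted p up to 0.155) and that of St6gal1 in 5 of 6 (all but MPC replicate 3, up to 0.0855). The other 4 calls passed in all 6.

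Of 9 measured genes for the supply of the donor UDP-GlcNAc, 1 was called, 11.1%, beside 7.87% of all genes. Gnpda2 read 7.95, 7.995 and 7.94 in MTT and 7.37, 7.31 and 7.16 in MPC cells, a rise in signal of 0.68 (limma adjusted p = 0.000262). Its MPC mean of 7.28 lies below the 99th percentile of the receptor genes, so it is not shown to lie above background. It encodes a deaminase that turns glucosamine phosphate back to fructose phosphate, the reverse of the step of Gfpt1. Its effect on the supply in these cells was not tested. Gfpt1 had a difference of -0.0047, and Slc35a3, the GlcNAc transporter of the Golgi, one of -0.13, which did not pass (limma adjusted p = 0.164). Of 14 genes for the other sugar donors Gmds, an enzyme of an early step on the route to GDP-fucose, the donor of Fut8, rose by 0.34. Gmds alone was called, 7.14% of the list, beside 7.87% of all genes.

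Among 11 other GlcNAc transferases Gcnt2, which branches repeats on existing antennae, rose by 0.32. Gcnt2 alone was called, 9.09% of the list, beside 7.87% of all genes. Of 8 galectins Lgals8 rose by 0.21 and was the 1 called (12.5%, beside 7.87% of all genes). Lgals3, a galectin known to bind antennae made by Mgat5, read 8.20 in MTT and 8.14 in MPC cells and did not pass. Of 3 genes reported to act on branching enzymes, the protease Sppl3 and the transcription factors Ets1 and Ets2, none passed limma's test (Sppl3, with the largest difference, had 0.090 and adjusted p = 0.157).

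**Figure D4:**
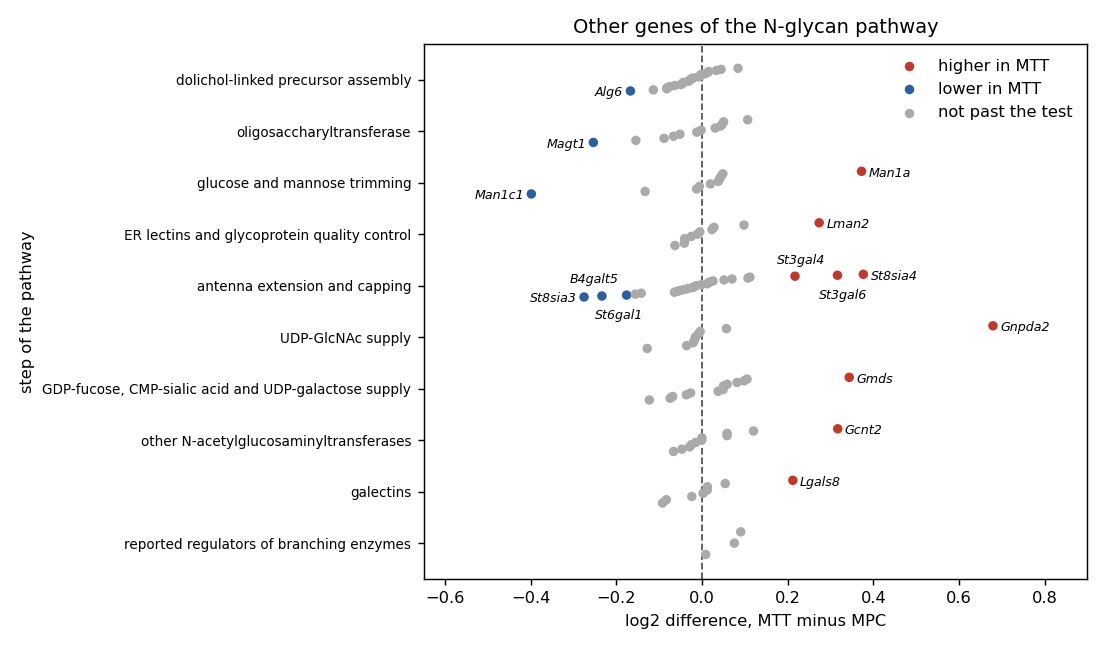
log2 difference between the lines (MTT minus MPC, horizontal axis) of 125 other genes of the N-glycan pathway by step (vertical axis); each point is 1 gene. Red marks genes higher in MTT cells and blue those lower, both past limma's test; of these 15 Gnpda2 lies farthest from 0, at 0.68.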

How the data were processed

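Probe signals were combined by the authors with RMA, which subtracts background and quantile-normalizes the arrays, and deposited as log2 values per probe set; the methods name Partek and R, the submitters' processing notes Affymetrix Expression Console and RMA, with versions and genome build not given in the sources used here. Scaling to Z-scores, which the methods describe, was not part of the values used. Of 34760 probe sets, 21640 had exactly 1 symbol in the platform's annotation (1321 had several, 11799 are not named here), which gave 19937 genes, with the brightest probe set used for 954 genes that had several. MTT and MPC arrays were compared with limma 3.58.1 in R 4.3.3 (lmFit and eBayes, two-sided, Benjamini-Hochberg over all genes, adjusted p under 0.05), a moderated form of the analysis of variance the methods name. The fit was tested on simulated data. Listed genes were matched by symbol or through RefSeq's GRCm38.p6 table, which also gave chromosomes and gene order; promoter windows are RefSeq's. The members and gene lists were chosen with earlier results of these data known. The genes named are the 9 enzymes, the called genes of each list (up to 4 by p, and all 6 of the capping list, 2 of which were added after their values were seen; where none was called, the brightest), the 5 neighbours on each side and the 5 nearest profiles; other names were added after their values were seen. Figures were drawn with matplotlib 3.10.9. The number of arrays limits the precision.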

Additional observations from a re-analysis of the deposited data

How the results depend on the processing

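Mgat4c kept its direction in the 13 alternatives that held it, and Mgat5b kept its direction and passed in all 14 (adjusted p 0.000337 to 0.0280). Of the 8 enzymes other than Mgat4c, Mgat5b alone was called in the alternatives, except with only genes above the median signal, where Mgat4b was called too. The sign of Mgat2 turned without MTT replicate 2 (-0.063 to 0.0019 over the 6 fits without 1 array) and that of Mgat4a without MTT replicate 1 (-0.0065 to 0.030); neither was called in any fit. The listed pathway genes called were 10 to 18 under all alternatives. Over all genes, 824 were called with ordinary variances, as in the methods' analysis, and 2416 with a mean-variance trend. Among all probe sets, where more features were tested, 942 were called, and without 1 array 891 to 1276. The cause of these changes in count was not tested. With only genes above the median signal 2207 of 9968 were called. With the replicate number as a block 1501 genes were called, 1343 of them shared with the fit without it. The numbers are not known to pair the samples: the deviations of same-numbered arrays correlated at 0.116, 0.0735 and 0.249, each array best with its own number. Centring of arrays and cyclic loess left the median difference of all genes at -0.0013 and 0.00027.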

Other observations

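The GalNAc transferases that start mucin-type O-glycans, a family looked at after the data were seen, also differed in single members. Of 19 measured Galnt genes 1 rose and 3 fell by limma's test over all genes, 21.1% together, beside 7.87% of all genes. Galntl6 rose by 1.12 on the log2 scale, with 8.07 ± 0.12 in MTT against 6.95 ± 0.032 in MPC cells (SD, n = 3 each, limma adjusted p = 2.62e-05), and its MPC signal lies inside the range of the olfactory and vomeronasal receptor genes. Galnt14 fell by 0.85, with 8.07 ± 0.073 against 8.92 ± 0.045 (SD, n = 3 each, limma adjusted p = 2.86e-05), and Galnt10 fell by 0.30. Galnt7 fell by 0.15, and leaving out 1 array at a time ended its call in 5 of 6 cases (all but MPC replicate 3), with an adjusted p up to 0.126.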
